A study of Rattus norvegicus with 4 samples.

Results

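Circular RNAs (circRNAs) whose host genes belong to cell adhesion and extracellular matrix families were followed in rat sciatic nerve. A host counted as a member when its symbol began with a prefix of the collagens, laminins, integrins (Itgam left out), ADAM proteases, cadherins, protocadherins, contactins, NCAMs, thrombospondins, latent TGF-beta binding proteins (LTBPs), fibrillins, fibronectin, fibronectin type III domain (FNDC) proteins, tolloid-like proteases, matrix metalloproteinases, neurexins, catenins, lysyl hydroxylases (Plod), exostosins or heparan sulfate 6-O-sulfotransferases. The rule itself used names only, and no measured value, though it was chosen with earlier results of these data known. It took in 68 of 4942 circRNAs (1.38%), from 38 of 2327 host genes (1.63%). No analysed host carried a thrombospondin, fibrillin, matrix metalloproteinase, neurexin, Plod or sulfotransferase prefix. A few symbols that a prefix takes in name other kinds of protein. Col4a3bp encodes a ceramide transfer protein and Ctnnbip1 an inhibitor of beta-catenin, and both were kept as members.

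The nerves came from Sprague-Dawley rats at postnatal week 6, with no allele or drug named for either group. In the crush group, 3 mm of the nerve was crushed 2 times for 15 s each with 3 s between, while sham nerves were exposed and left uncrushed. Tissue was taken 24 h after surgery, and in the crush group it held the crushed stretch with 1 mm of nerve at both ends. Each group had 2 libraries of total RNA, and the labels do not say whether they came from separate animals or from pooled nerves, so the p-values below measure only the spread between these libraries, which may be technical. The libraries held 8250 and 9027 back-splice junction reads after crush (replicates 1 and 2) and 9018 and 8726 after sham. No circRNA was listed with 1 read: counts were 0 or 2 and above, and a 0 only says that the library had no report of that circRNA. Positions below are on the rat build Rnor_6.0, which the submitters' processing notes name.

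A circRNA forms when a splice donor is joined backwards to an upstream acceptor, so that one or more exons close into a ring without a cap or a tail. Peripheral nerve is rich in matrix: each Schwann cell, with its axon, is wrapped in a basal lamina of laminins and collagens, and fibrillar collagens fill the endoneurium around it. Integrins and cadherins hold cells to that matrix and to each other, while ADAM and tolloid proteases cut matrix and surface proteins. A circRNA count reports the circular product of a host and says little by itself about the host's linear mRNA, which was not measured here. In tissue RNA, fewer cells of a type and less of a circRNA per cell cannot be told apart.

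Adhesion and matrix circRNAs were scarce and thinly covered. They held 245 of 35021 junction reads (0.700%), with a mean of 3.60 reads per circRNA over the 4 libraries together, against 7.09 over all circRNAs. Of the 68, 54 (79.4%) were reported in 1 library, against 72.6% of all circRNAs, and 56 (82.4%) never exceeded 3 reads in a library, against 69.1%. Adam9, Adamts17, Fndc3b and Lama2 together held 96 of the 245 reads (39.2%). As a host, Adam9 led with 29 reads in all, and 198 hosts of the nerve had more than that. With so few reads, only large differences between crush and sham could be detected for a single host.

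In each library, adhesion and matrix circRNAs made up a smaller share after crush than after sham. Their junction reads numbered 47 and 49 after crush and 77 and 72 after sham. As shares of all junction reads, the crush libraries had 0.570% (95% Clopper-Pearson interval 0.419% to 0.757%) and 0.543% (interval 0.402% to 0.717%). The sham libraries had 0.854% (interval 0.674% to 1.07%) and 0.825% (interval 0.646% to 1.04%). The 2 groups did not overlap, although the counting intervals of crush and sham libraries did. The same order held for the number reported. Crush libraries listed 19 and 16 of these circRNAs, or 1.06% and 0.791% of all circRNAs reported there, and sham libraries listed 25 and 27, or 1.47% and 1.58%. Intervals here and below cover counting error only, and no molecular identifiers are named, so PCR reads may not be independent molecules. Counts of at least 5 reads in a library, taken alone, gave shares of 0 and 0.340% for the crush libraries against 0.333% and 0.187% for the sham libraries, and the groups overlapped. The difference in mean share was -0.283 percentage points over all reads and -0.0898 over those counts.

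**Figure D1:**
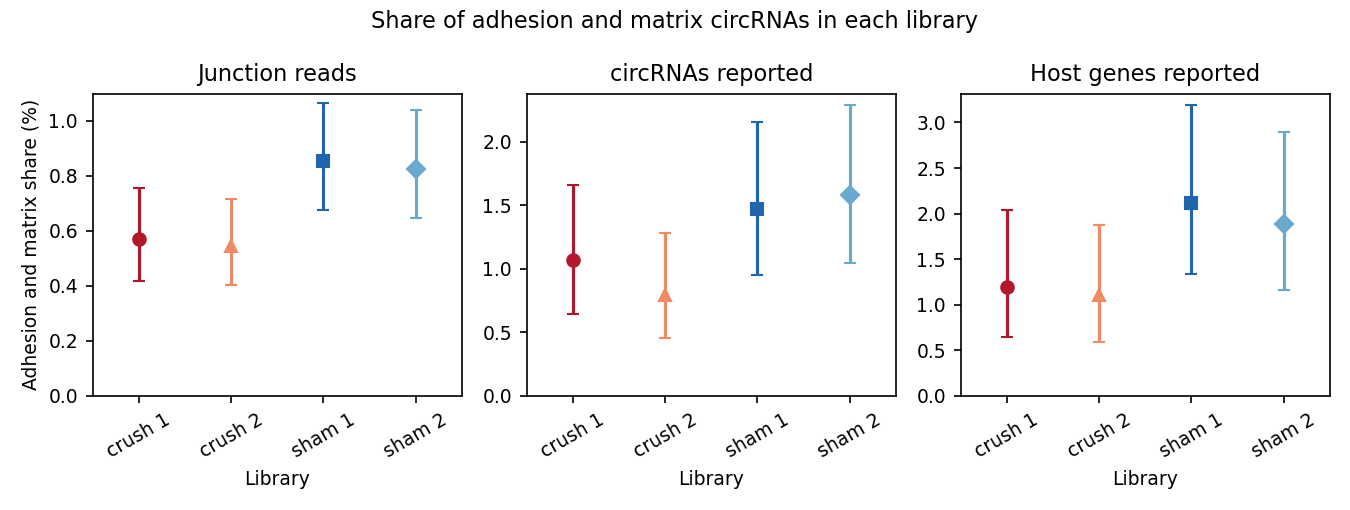
Adhesion and matrix circRNAs as a share (%, y axis) of junction reads, of circRNAs reported and of host genes reported in each of the 4 libraries (x axis), with bars for the 95% Clopper-Pearson interval. Both crush libraries lie below both sham libraries in all 3 panels, from 0.543% and 0.570% against 0.825% and 0.854% for reads, and the bars of the groups overlap.

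On the deposited SRPBM scale, where reads are scaled to a library total, the crush libraries summed to 3.17 ± 0.34 and the sham libraries to 5.64 ± 0.04 (SD, n = 2). Crush minus sham was -43.8% of the sham level. The SRPBM sum over all circRNAs was also lower in both crush libraries than in either sham library. On shares of junction reads, which set that aside, crush minus sham was -33.7%. Without the 4 hosts with the most reads the sums were 1.78 ± 0.15 and 3.60 ± 0.14 SRPBM, and crush minus sham was -50.5%. Since the members were picked with results of these data known, no p-value is given for a sum over them. Marker sums of some other cell types differed between the groups as well. These lists were also drawn up with earlier results of these data known, so their sums are no independent evidence. Of 24 leukocyte marker genes, 12 had a circRNA, with 88 and 76 reads in crushed nerve and 3 and 5 in sham nerve (6.38 and 4.54 against 0.219 and 0.393 SRPBM); Csf1r and Tlr2 were among the 12 with none. Of 14 skeletal muscle genes, 5 had a circRNA, with 76 and 84 reads against 207 and 235 (5.51 and 5.02 against 15.1 and 18.5 SRPBM). Nearly all of these came from Mlip, with 76 and 79 against 204 and 226, and the defining muscle genes Ttn, Acta1 and Ckm had none. Of 16 Schwann cell genes, 3 had a circRNA, with 0 and 0 reads against 4 and 8 (0 and 0 against 0.291 and 0.629 SRPBM), and Sox10 had none. Endothelial genes (4 of 8 with a circRNA) had 8 and 8 against 7 and 11 reads, and fibroblast and perineurial genes (3 of 10, Itga6 a member among them) had 2 and 7 against 5 and 0, with Col1a1 and Pdgfra at none. The labelled tissue therefore showed few circRNAs of its own defining genes. The part of these cell types in the adhesion and matrix values was not tested.

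Sham nerve also held a wider range of adhesion and matrix hosts. Crush libraries reported 13 and 13 of the 38 hosts, or 1.20% and 1.10% of all hosts reported there, and sham libraries 22 and 20, or 2.12% and 1.89%. Of the 38 hosts, 18 (47.4%) had reads in sham nerve alone, against 28.9% of all hosts, and 5 (13.2%) in crushed nerve alone, against 33.9%. The 5 seen after crush alone were Col18a1, Itgb3, Itga2, Col12a1 and Adamtsl3, each in 1 library. Mean SRPBM was higher in sham for 31 of the 38 (81.6%), against 51.3% of all hosts, and mean share of reads for 29 (76.3%), against 47.9%. Single libraries weigh on the first count. Without sham replicate 1, the hosts seen in sham alone numbered 11 of 31 (35.5%, against 19.2% of all hosts), and without sham replicate 2, 9 of 29 (31.0%, against 19.3%). Without crush replicate 1 it was 23 of 36 (63.9%, against 41.7%), and without crush replicate 2 it was 22 of 35 (62.9%, against 45.2%). Those seen after crush alone numbered 11 (35.5%, against 48.2% of all hosts) without sham replicate 1 and 7 (24.1%, against 49.3%) without sham replicate 2. They numbered 3 (8.33%, against 24.2%) without crush replicate 1 and 2 (5.71%, against 22.5%) without crush replicate 2.

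Single circRNAs showed the same pattern. Of the 68, 38 (55.9%) were reported in sham nerve alone, against 36.7% of all circRNAs, and 22 (32.4%) in crushed nerve alone, against 43.9%. Mean SRPBM was higher in sham for 43 (63.2%), against 48.8%, and mean share of reads for 42 (61.8%), against 47.0%. Both sham libraries and no crush library reported 5 of them (7.35%), against 3.56% of all circRNAs, namely one each of Lama2, Lamb1, Col5a1, Fndc3b and Ltbp1. Both crush libraries and no sham library reported 1 (1.47%), against 4.51%, a circRNA of Adam9.

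Hosts whose libraries were fully separated were no more common than in the nerve at large. Both crush libraries lay below both sham libraries in reads for 4 of the 38 hosts (10.5%), namely Lama2, Lamb1, Col5a1 and Cdh19, against 11% of all hosts. No member host had both crush libraries above both sham libraries, against 11.6% of all hosts. Of the 4, Lamb1 and Col5a1 (5.26% of members) had reads in both sham libraries and in neither crush library, against 4.94% of all hosts, and no member host showed the opposite, against 6.27%. Among single circRNAs, 5 of 68 (7.35%) lay lower after crush in this sense, against 6.37% of all circRNAs, and 1 (1.47%) lay higher, against 6.48%. Another split ran along the replicate numbers. Col4a3bp, Adam10, Itga6 and Itga8 (10.5% of the 38) were reported in the replicate 1 libraries of both groups and in neither replicate 2 library, against 2.66% of all hosts. Among circRNAs, 2 (2.94%) had that pattern, against 1.34%. Reports in the replicate 2 libraries of both groups alone were made for Ext2 (2.63% of the 38, against 3.05% of all hosts) and for 1 circRNA (1.47%, against 2.19%).

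**Figure D2:**
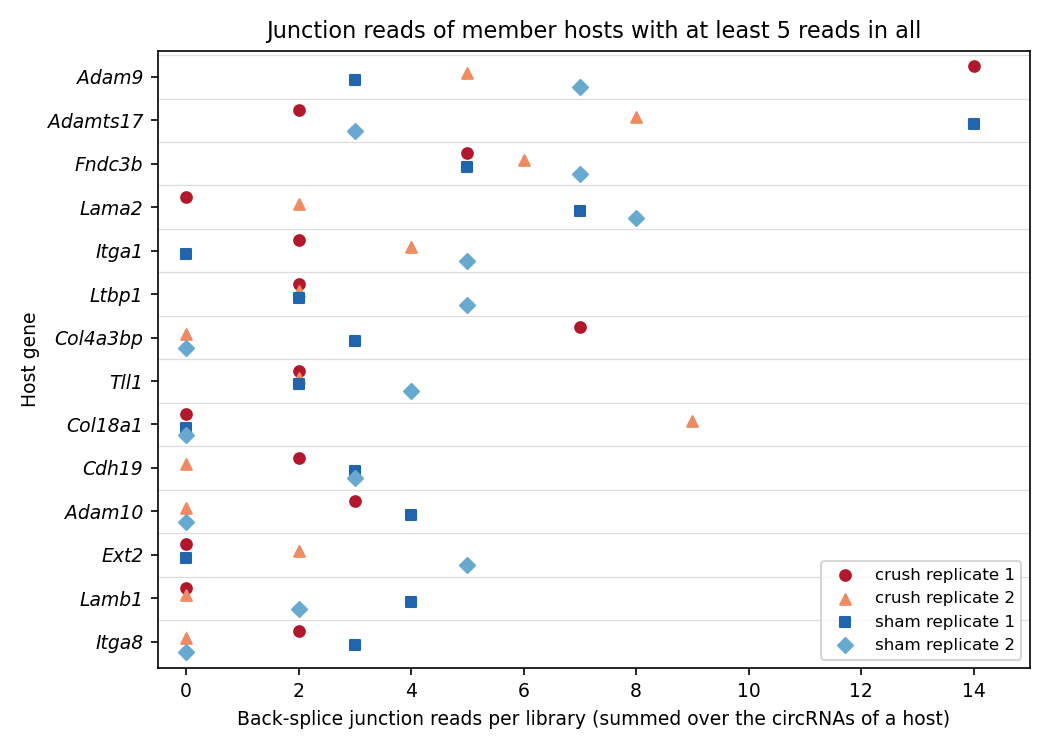
Back-splice junction reads (x axis) of the 14 member hosts with at least 5 reads in all (y axis), 1 symbol per library. Lama2 and Lamb1 lie higher in both sham libraries, while Adam9 and Adamts17 each reach 14 reads in 1 library of opposite groups.

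Of the 38 hosts, 4 had at least 5 reads in at least 2 libraries and could be tested with edgeR's quasi-likelihood test, among 434 hosts tested in all. None of the 4 passed the threshold of 0.05 after Benjamini-Hochberg adjustment, whereas 1.84% of all tested hosts rose and 0.461% fell (2.3% in either direction). The 8 hosts of the nerve that rose and 2 that fell became 8 and 6 with library totals taken from SRPBM, which moved the median log2 change of all tested hosts from 0.11 to -0.30. No host of the nerve passed without crush replicate 2, and 84 did without sham replicate 2. None of the 4 had an unadjusted p under 0.05 either, against 25.6% of all tested hosts, and DESeq2 and limma on log2(SRPBM + 0.1) called none, though limma gave Lama2 an unadjusted p = 0.0142. With edgeR, Lama2 had an unadjusted p = 0.0391 with SRPBM totals, and without crush replicate 2 Lama2 and Adam9 had 0.0243 and 0.0378, none of which passed after adjustment (adjusted p = 0.157, 0.178 and 0.178). Their median fitted log2 change was -0.23, against 0.11 over all 434. The sign of this median turned with any 1 library left out. It was 0.23 without crush replicate 1 (4 hosts) and 0.18 without crush replicate 2 (3 hosts). Without sham replicate 1 it was 0.036 (2 hosts), and without sham replicate 2 it was 0.31 (3 hosts). The set of hosts changed too, as the read filter dropped Lama2 without either sham library. Adamts17 was dropped without crush replicate 2 and without sham replicate 1. Lama2 had a negative log2 change in every fit that tested it. It passed the read filter only through its sham reads, so that sign is no independent evidence. The 4 are those with the most reads and do not stand for all 38 members. The remaining 34 hosts had too few reads for this test. A lower filter of at least 2 reads in 2 libraries let in 17 member hosts, and edgeR called none of these, nor any other host of the nerve; Lamb1 and Col5a1 had an unadjusted p under 0.05 there, with adjusted p = 0.168 and 0.164.

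**Figure D3:**
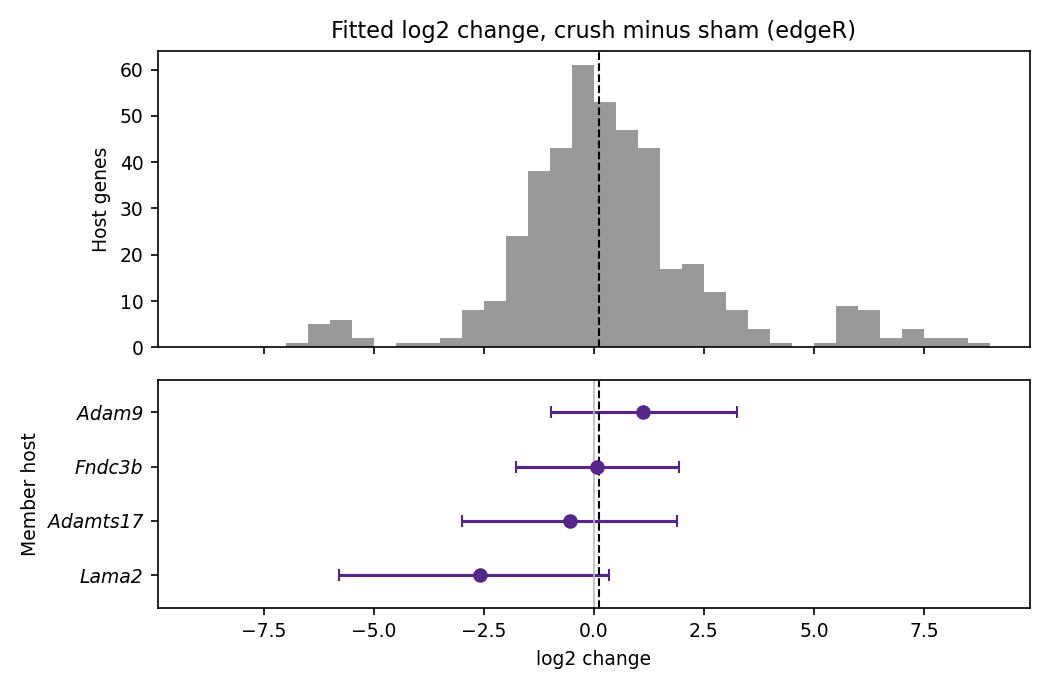
Fitted log2 change, crush minus sham, on the x axis: a histogram of the 434 tested hosts (upper panel) and the 4 tested adhesion and matrix hosts with 95% intervals of the fit (lower panel). The dashed line marks the median of all tested hosts, 0.11, and every one of the 4 intervals spans 0.

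Laminins, the trimeric glycoproteins that organise basal laminae, were listed with more reads in both sham libraries than in either crush library. Their 3 hosts had 0 and 2 reads in the crush libraries, against 15 and 10 in the sham libraries. Their level was 0.0598 ± 0.0846 in crushed nerve and 0.940 ± 0.217 in sham nerve, in SRPBM (SD, n = 2). Pooled over the libraries of a group, the sham level was 14.4 times the crush level, with a 95% counting interval of 3.60 to 126. Hosts and families were picked for such a ratio by their own read counts, so the interval is no independent evidence. The laminin ratio rests on the 2 reads of crush replicate 2. Crush minus sham was -93.6%, -87.3% without crush replicate 1 and -100% without crush replicate 2, where no fold can be given. Lama2 (ENSRNOG00000011134), which encodes the alpha chain of the main laminin of the Schwann cell basal lamina, had 0 and 2 reads in the crush libraries, against 7 and 8 in the sham libraries. Both sham libraries lay above both crush libraries. The fitted log2 change was -2.58 ± 1.27 (SE; 95% interval -5.78 to 0.35) and did not pass (adjusted p = 0.237, edgeR). Without crush replicate 1 the log2 change was -1.58, and without crush replicate 2 it was -5.80, with adjusted p = 0.490 and 0.178 (edgeR). Lamb1, which encodes a beta chain found in the same trimers, had 0 and 0 reads against 4 and 2, from 1 exonic circRNA (chromosome 6, 50541921 to 50552795). Lama4, an alpha chain of endothelial and perineurial basement membranes, had 4 reads in sham replicate 1 alone, from an intronic circRNA. Neither could be tested at the reported filter.

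The laminin reads of the 2 groups were listed at different junctions. Lama2 gave 4 exonic circRNAs on chromosome 1, plus strand, and none was reported in both groups. The one from 18644225 to 18694013, spanning 49788 bases, had 0 and 0 reads in the crush libraries, against 5 and 4 in the sham libraries. Its sham mean was 1.71 times a floor of 3 reads in each crush library, counting error left out. The only Lama2 circRNA reported after crush, from 18644225 to 18655979, began at the same position and had 2 reads in crush replicate 2. The other two, 18950547 to 18972208 and 19111082 to 19117066, had 4 reads in sham replicate 2 and 2 in sham replicate 1. Counts of 2 to 5 reads cannot show whether a junction was absent from the other group.

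Collagens, the structural proteins of fibrils and basement membranes, had a higher mean SRPBM after crush than after sham, and on that scale their libraries overlapped. The 5 hosts with a collagen prefix had 9 and 9 reads in the crush libraries, against 8 and 2 in the sham libraries. Their level was 0.595 ± 0.081 in crushed nerve and 0.370 ± 0.301 in sham nerve, in SRPBM. Crush minus sham was 60.9% in SRPBM, and it ran from 2.15% without sham replicate 2 to 278% without sham replicate 1. On shares of junction reads crush minus sham was 87.0%. In shares, as in reads, both crush libraries lay above both sham libraries. The crush reads came from few hosts. Col18a1, whose product is a basement membrane collagen and the source of endostatin, had 9 reads in crush replicate 2 and 0 in the other 3 libraries, from 1 exonic circRNA (chromosome 20, 12314507 to 12317138). Col4a3bp, the ceramide transfer gene, had 7 and 0 reads in the crush libraries, against 3 and 0 in the sham libraries over 4 circRNAs, so its reads came from replicate 1 of both groups. The 4 collagen genes proper had 2 and 9 reads in the crush libraries, against 5 and 2 in the sham libraries. Col5a1, a fibrillar collagen gene, had 0 and 0 against 2 and 2. Of the collagens that decorate fibrils, Col14a1 had 3 reads in sham replicate 1 and Col12a1 had 2 in crush replicate 1.

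Integrins, the receptors that bind cells to matrix, had close mean SRPBM in crushed and sham nerve, with overlapping libraries. The 6 integrin hosts had 6 and 9 reads in the crush libraries, against 5 and 8 in the sham libraries. Their level was 0.487 ± 0.073 in crushed nerve and 0.497 ± 0.187 in sham nerve, in SRPBM. Crush minus sham was -2.04% in SRPBM and 17.2% on shares of junction reads, so the direction depends on the scale. Itga1, a receptor subunit for collagen and laminin, had 2 and 4 reads against 0 and 5. Its neighbour in function Itga2, a collagen receptor subunit, had 2 reads in crush replicate 2 alone. Among laminin receptor subunits, Itga6 had 2 and 0 against 2 and 0, and Itga7 had 3 reads in sham replicate 2. Itga8, which pairs with beta 1 to bind fibronectin and related ligands, had 2 and 0 against 3 and 0. Itgb3, the beta subunit of a platelet and vascular integrin, had 3 reads in crush replicate 2. The leukocyte integrin gene Itgam, which the rule leaves out, had 6 and 5 reads after crush and 0 after sham.

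**Figure D4:**
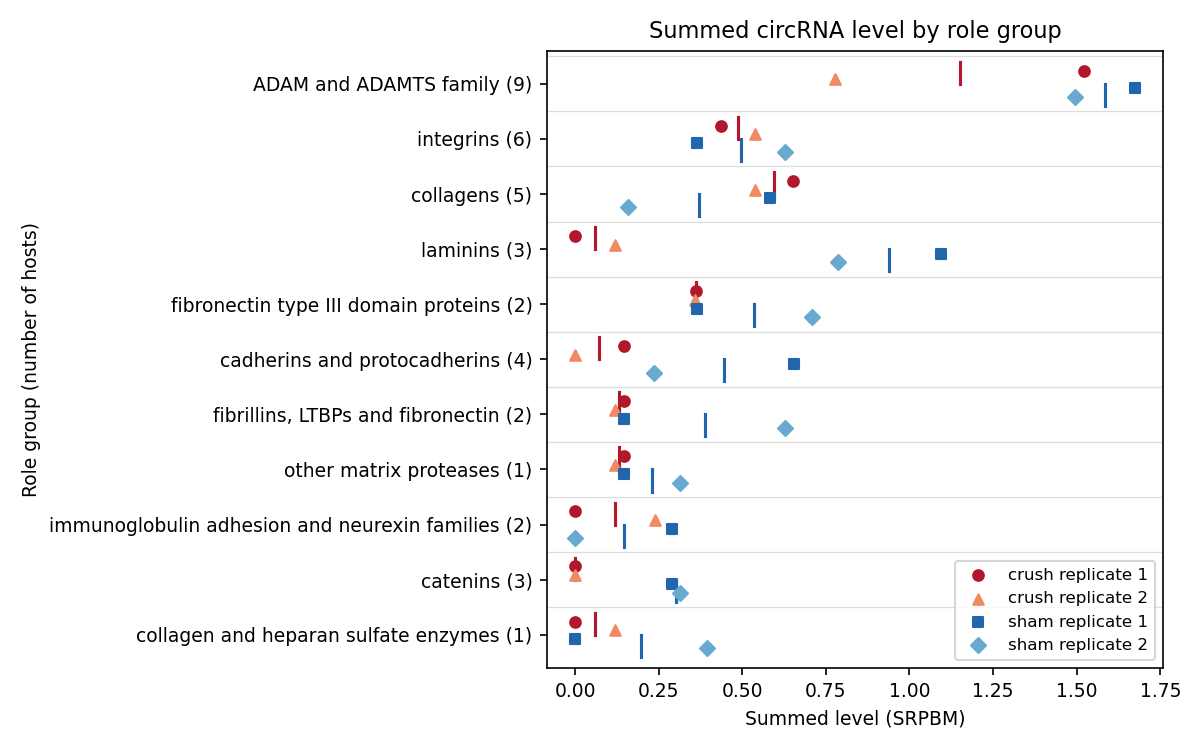
Summed level in SRPBM (x axis) of each role group (y axis, number of hosts in brackets) in the 4 libraries, with a red bar for the crush mean and a blue bar for the sham mean. The laminin libraries are separated, 0.0598 against 0.940 SRPBM in the mean, while the integrin and collagen libraries overlap.

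The ADAM and ADAMTS family, mostly metalloproteases that shed surface proteins or cut matrix proteoglycans, held the most reads, and its libraries overlapped. Its 9 hosts had 21 and 13 reads in the crush libraries, against 23 and 19 in the sham libraries. Its level was 1.15 ± 0.53 in crushed nerve and 1.58 ± 0.13 in sham nerve, in SRPBM. Adam9 (ENSRNOG00000017231), a membrane-bound sheddase gene, had 14 and 5 reads in the crush libraries, against 3 and 7 in the sham libraries. Its log2 change of 1.13 ± 0.88 (95% interval -0.96 to 3.25) did not pass (adjusted p = 0.446, edgeR), and it was 0.26 without crush replicate 1, 1.90 without crush replicate 2, 0.43 without sham replicate 1 and 1.82 without sham replicate 2. Adamts17 (ENSRNOG00000037080), the gene of a secreted protease linked to elastic microfibrils, had 2 and 8 reads against 14 and 3. Replicates of a group differed more here than the group means, with a log2 change of -0.54 ± 1.01 (95% interval -2.99 to 1.89, adjusted p = 0.786, edgeR) that turned to 0.20 without crush replicate 1. Adam10, a sheddase gene, had 3 and 0 against 4 and 0. The genes Adam17, Adam23, Adamts10, Adamts16, Adamts20 and Adamtsl3 each had 2 or 3 reads in 1 library, a sham library for all but Adamtsl3.

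All reads of Adamts17 came from 1 exonic circRNA (chromosome 1, 127881908 to 127887913), the only one of the 68 reported in all 4 libraries and the only one with enough reads for the test of single circRNAs. It did not pass there (log2 change -0.51 ± 1.04, adjusted p = 0.835, edgeR), against 7.48% of 428 tested circRNAs that rose and 4.44% that fell (11.9% in all, or 6 circRNAs without crush replicate 1 or without crush replicate 2), and its unadjusted p was above 0.05, where 27.8% of tested circRNAs had one below. With SRPBM totals, the 32 circRNAs of the nerve that rose and 19 that fell became 31 and 28. Adam9 was spread over 5 exonic circRNAs of chromosome 16, plus strand. The one from 71834319 to 71836365 had 4 and 3 reads in the crush libraries, against 0 and 0 in the sham libraries. Its crush mean was 1.03 times the floor of 3 reads, counting error left out. This circRNA was the only adhesion or matrix circRNA with both crush libraries above both sham libraries. The one from 71853351 to 71865681 had 3 and 2 against 0 and 5, and that from 71849834 to 71853546 had 4 and 0 against 3 and 0. The remaining pair had 3 reads in crush replicate 1 and 2 in sham replicate 2.

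Fndc3b (ENSRNOG00000024089), the gene of a membrane protein with fibronectin type III repeats, had nearly equal reads in both groups and 4 of its 5 junctions were reported in 1 group alone. As a host it had 5 and 6 reads in the crush libraries, against 5 and 7 in the sham libraries, with a log2 change of 0.08 ± 0.77 (95% interval -1.77 to 1.93, adjusted p = 0.966, edgeR), and the interval allows changes of more than 3-fold either way. The circRNA from 113177840 to 113192625 on chromosome 2, minus strand, had 0 and 0 reads against 3 and 5. Its sham mean was 1.54 times the floor of 3 reads, counting error left out. The one from 113177840 to 113198013, which shares an end with it, had 3 and 2 against 0 and 2. The one from 113229566 to 113247843 had 4 reads in crush replicate 2, and the one from 113229566 to 113233581 had 2 in crush replicate 1. All 5 circRNAs of Fndc3b shared an end with another. The related gene Fndc3a had 2 reads in sham replicate 2.

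Proteins that store growth factors or process collagen gave low, scattered counts. Ltbp1, whose product anchors latent TGF-beta in the matrix, had 2 and 2 reads in the crush libraries, against 2 and 5 in the sham libraries over 4 circRNAs. Its circRNA from 21334766 to 21354603 (chromosome 6, minus strand, exonic) had 0 and 0 against 2 and 3, while the circRNAs reported after crush lay elsewhere in the gene. Tll1, a tolloid-like protease gene for procollagen processing, had 2 and 2 reads against 2 and 4, from 5 exonic circRNAs with 2 reads in 1 library each. Fn1, the fibronectin gene, had 3 reads in sham replicate 2. Ext2, a subunit of the heparan sulfate polymerase, had 0 and 2 against 0 and 5.

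Cell-to-cell adhesion genes had few reads in either group. The 4 cadherin and protocadherin hosts had 2 and 0 reads in the crush libraries, against 9 and 3 in the sham libraries. Cdh19, a cadherin gene of the Schwann cell lineage, had 2 and 0 against 3 and 3, from 2 exonic circRNAs that share an end. Cdh18, Pcdh17 and Pcdh19 each had 2 reads, all in sham replicate 1. The 3 hosts with a catenin prefix had 0 and 0 reads against 4 and 4. A floor of 3 reads for each of their circRNAs would exceed the sham reads, so no ratio to it is given. Ctnnal1 gave the 4 reads of sham replicate 1. Ctnna3, of the alpha catenins that link cadherins to actin, and Ctnnbip1, the beta-catenin inhibitor gene, gave 2 each in sham replicate 2. Of the immunoglobulin adhesion genes, Ncam2 and Cntn5 each had 0 and 2 reads in the crush libraries, against 2 and 0 in the sham libraries.

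**Figure D5:**
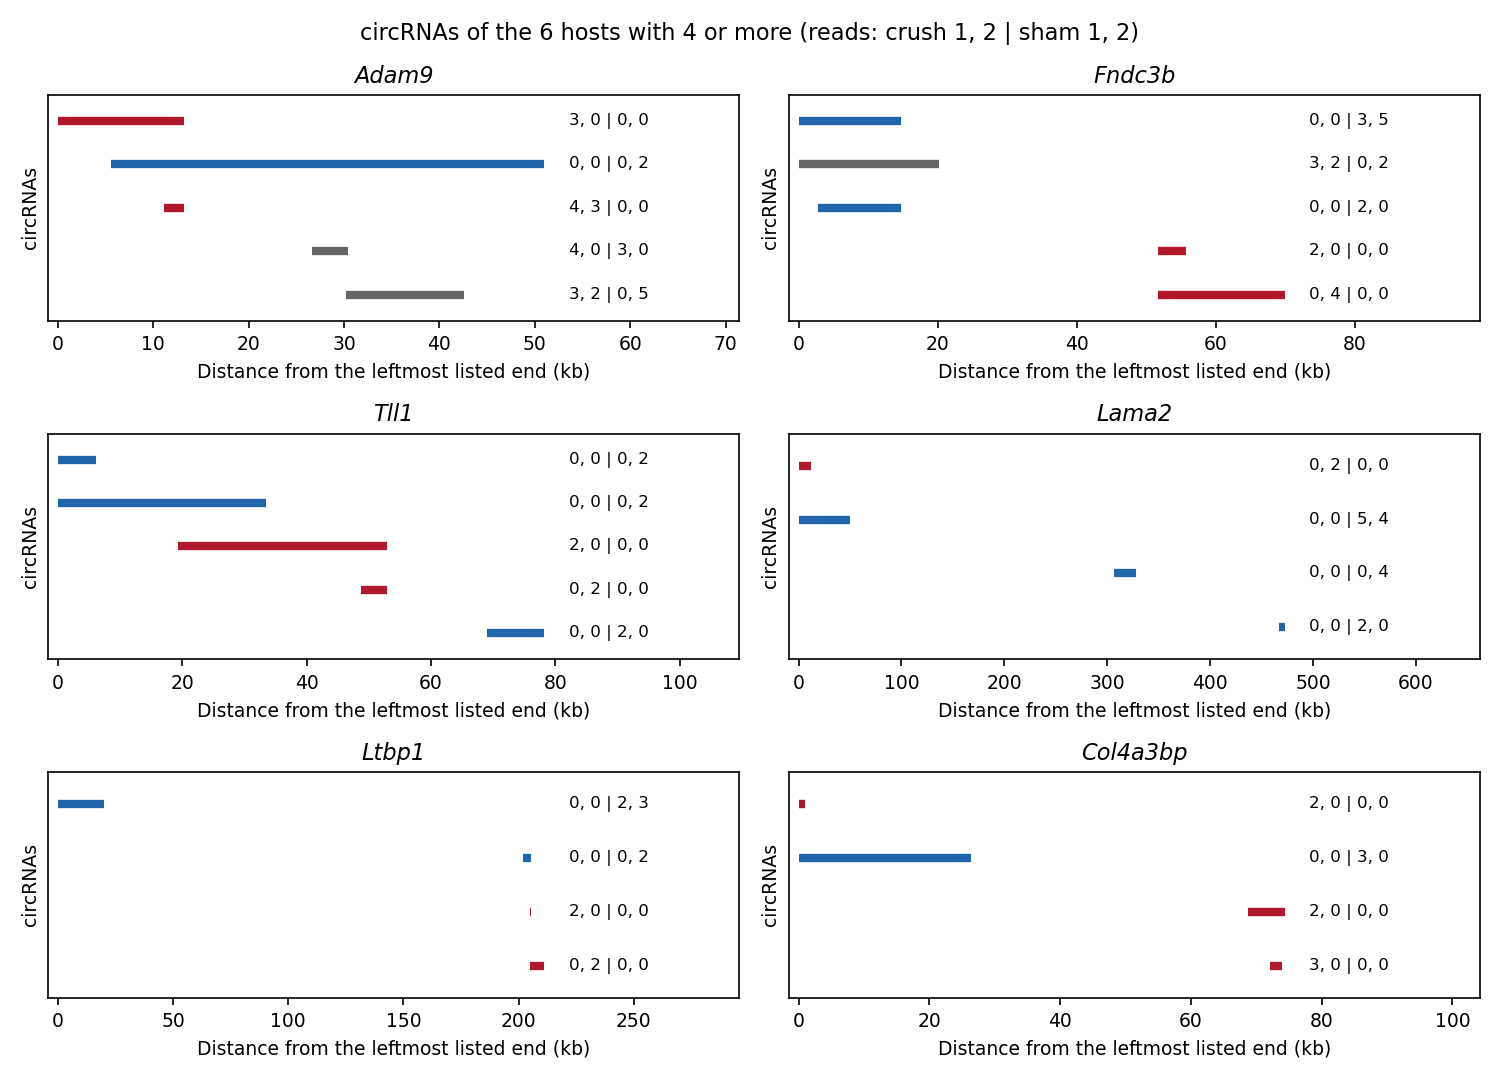
The circRNAs of the 6 hosts with 4 or more, drawn as bars by distance in kb from the leftmost listed end (x axis), with reads in crush replicates 1 and 2 and sham replicates 1 and 2 printed beside each. Red bars were reported in crush alone, blue bars in sham alone and grey bars in both; Lama2, Tll1, Ltbp1 and Col4a3bp have no grey bar.

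Of the 68 circRNAs, 8 (11.8%) were reported in both groups, against 19.3% of all circRNAs. All 13 hosts with 2 or more circRNAs had reads in both groups, and in 8 of them (61.5%) no circRNA was reported in both, against 36.4% of the 640 such hosts of the nerve. The 8 were Lama2, Tll1, Ltbp1, Col4a3bp, Adam10, Itga6, Itga8 and Cntn5. These 8 had 4 to 17 reads in all, and the part of their low depth in this count was not tested. Of the 68, 60 (88.2%) were exonic, against 88.7% of circRNAs with 1 host. The genomic span between the listed ends, introns included, had a median of 9813 bases (quartiles 4005 and 24243), against 8532 (3164 and 19358) for all with 1 host. The range was from 167 bases in Adamts20 to 94457 bases in Cntn5. Members averaged 1.79 circRNAs per host, against 1.81, and 65.8% of hosts had 1, against 62.2%. Among hosts with several, 65.1% of member circRNAs shared an end with another, against 64.3%. Among circRNAs reported in at least 2 libraries, 3 of 5 such members (60.0%) did, against 86.0%.

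Adhesion and matrix hosts outside the name rule were tested in the same fit. Of 178 listed genes, 34 had a circRNA, with 128 and 166 reads in crushed nerve and 94 and 66 in sham nerve, and 6 had enough reads to be tested. Emilin2, Vcan and Sdcbp held most of the crush reads. The other listed genes together had fewer reads in each crush library than in either sham library. Leaving out the hosts with the most crush reads favours that order, so it is no independent evidence. Of the 6, 3 rose, none fell, and the other 3 did not pass. Emilin2, an elastin-associated glycoprotein gene, had 58 and 67 reads against 6 and 9 (log2 change 3.24 ± 0.45, adjusted p = 0.0358, edgeR). Vcan, the gene of the proteoglycan versican, had 15 and 27 against 0 and 0, and Sdcbp, the gene of the syndecan-binding adaptor syntenin, had 15 and 25 against 0 and 0 (adjusted p = 0.0490 for each, edgeR). Without crush replicate 1 only Emilin2 of the 3 passed, and without crush replicate 2, or with the filter lowered to 2 reads, none did. The list was drawn up with these 3 results already known, so its count is no independent evidence. Tenm2, Fat1 and Utrn had log2 changes of -1.69 ± 0.71, -1.90 ± 1.32 and -0.85 ± 0.64, with adjusted p = 0.192, 0.392 and 0.432 (edgeR). Cd44, the hyaluronan receptor gene that the leukocyte list also holds, had 5 and 3 against 0 and 0. Vcan and Sdcbp entered the test through their crush reads alone. Only 4 hosts taken in by the name rule could be tested, and none of them passed. The difference between these lists was not tested.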

How the data were processed

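The authors deposited, per the file headers, the back-splice junction read count of each circRNA in each library as raw counts. They also deposited these reads as SRPBM, a signal that within a library equals the count times 1 constant. The genomic length column equals end minus start for all 4942 circRNAs, and coordinates are those of the files. CASAVA 1.8, BWA, edgeR and the build Rnor_6.0 appear in the submitters' processing notes, with no role attached, and none of the sources used here gives the circRNA caller. Of 38 member symbols, 37 matched a current RefSeq symbol of the GRCr8 table and 1 matched a synonym; no sequence is printed, since no genome of the files' build was used here.

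Reads were summed per host over circRNAs with 1 host gene (732 intergenic circRNAs and 3 with 2 hosts stayed out). Host genes and circRNAs with at least 5 reads in at least 2 libraries were tested over the whole table with edgeR 4.0.16 (glmQLFit, glmQLFTest) in R 4.3.3, with TMM scaling, in two-sided tests adjusted by Benjamini and Hochberg and called at 0.05. The SE is the unshrunk log2 change divided by the square root of the F statistic, and the 95% interval of the fit is centred on that unshrunk change. The printed log2 change is edgeR's shrunken value, so it can lie off the centre of its interval. Alternatives used DESeq2 1.42.0, limma 3.58.1 with a pseudocount of 0.1 SRPBM, other scalings and filters, a replicate block and 1 library left out. Sums and shares are described without a test; 95% intervals are exact Clopper-Pearson. The floor set 3 reads in each library of a group listed at 0. It left out the counting error of the other group, so ratios to it are not confidence bounds. The edgeR tests were also run on simulated data built from the means and library totals of these data, and that outcome is not reported here. The members and lists were chosen with earlier results of these data known.

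Values are given for hosts with at least 5 reads in at least 2 libraries, those in both libraries of 1 group and in none of the other, the 12 highest in mean SRPBM and those with 4 or more circRNAs. The same read filter, or presence in all 4 libraries, chose single circRNAs, and outside the name rule any host past the test was taken. Other hosts and circRNAs were named after their values were seen, to account for every member.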

Additional observations from a re-analysis of the deposited data

How the results depend on the processing

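No member host or circRNA passed under any alternative that tested it, and with at least 10 reads in 2 libraries no member was left to test. The number of all host genes past the threshold (10) was 0 at a filter of 2 reads in 2 libraries, 44 at 10 reads, 39 with no filter, 32 with DESeq2, 46 with limma, 20 with exonic circRNAs, 24 with a replicate block, and 0 to 84 with 1 library left out. For all circRNAs (51) it was 0 with at least 2 reads, 23 with at least 10, 28 with DESeq2, 0 with a replicate block, and 6 to 76 with 1 library left out. Same-numbered libraries did not deviate together across the 434 tested hosts (Pearson's r = -0.050, hosts not being independent replicates). Hosts below the read filter, such as Col4a3bp, Adam10, Itga6 and Itga8, were not part of that value. The labels do not say that equal numbers share an animal or day, so the numbers were not treated as pairs. The 3 hosts outside the name rule that rose became 0 with at least 2 reads, and 0 to 3 with 1 library left out (1 without crush replicate 1, 0 without crush replicate 2); the cause was not tested.

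The summed difference of -43.8% was -33.7% on shares of reads, -53.2% when only circRNAs with at least 5 reads in a library counted, and, in settings added after seeing the data, -50.5% without the 4 leading hosts and -46.5% without Col4a3bp and Ctnnbip1. The share difference of -0.283 percentage points was -0.369 with exonic circRNAs, -0.353 over circRNAs with 1 host and -0.0898 with at least 5 reads. Among circRNAs called in at least 2 libraries, 100% were exonic, against 94.1% of all with 1 host, and 81.8% of hosts had 1, against 75.2%.

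Small differences changed direction. Fndc3b had log2 changes of -0.33 with SRPBM totals, -0.093 with at least 2 reads, -0.095 with no filter, -0.25 with limma and -0.36 without sham replicate 1 (0.31 without sham replicate 2). Adamts17 had 0.20 as a host and 0.18 as a circRNA without crush replicate 1, and -1.29 and -1.32 without sham replicate 2. Integrins differed by 17.2% on shares of reads, 8.34% without crush replicate 1 and from -22.7% to 33.6% without one sham library or the other, and the immunoglobulin group by 64.2% without crush replicate 1 and -100% without crush replicate 2. No member host had more than 14 reads in a library, and the part of depth in these changes was not tested.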

Other observations

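One circRNA classed as intergenic overlapped an adhesion or matrix circRNA on its strand. It lay at 113229566 to 113345579 on chromosome 2, shared an end with circRNAs of Fndc3b and had 2 reads in sham replicate 1. Its reads are not part of the Fndc3b values.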
